A study of Homo sapiens with 9 samples.

Results

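RARRES3 and GPRC5A are genes first found as induced by retinoic acid, and they were examined here with 8 other genes of the retinoid pathway: RARRES1, the receptors RARA, RARB, RARG and RXRA, the enzymes DHRS3 and ALDH1A3, and the binding protein CRABP2. The 10 genes were picked by symbol from tables of 21619 genes, with results of the same comparison known, so the differences between groups below are a description of these tumours. Of the 10, 9 passed the filter on low counts, and RARRES1 did not. The tumours were xenografts of MDA-MB-231, a breast cancer cell line that lacks oestrogen, progesterone and HER2 receptors, and the injected cells carried an EGFP tag on the ribosomal protein L10a. In the 5 tumours with MSC the cancer cells had been injected into the mammary fat pad together with human mesenchymal stem cells from bone marrow at equal number, and in the 4 tumours without MSC the same cells had been injected alone. Every tumour was from a different mouse and was taken after 3 weeks. Polysomes were pulled from whole-tumour lysate with beads against GFP, so the counts are of RNA on tagged ribosomes plus any carry-over. The same change can come from RNA abundance or ribosome loading, and in such bulk samples fewer cells of a kind and less RNA per cell cannot be told apart.

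Retinol is oxidised to retinal and then, by enzymes such as ALDH1A3, to retinoic acid, while DHRS3 turns retinal back into retinol. CRABP2 carries retinoic acid to the nuclear receptors RARA, RARB and RARG, which bind DNA in pairs with an RXR such as RXRA and switch from repression to activation when the ligand binds. Retinoic acid slows growth and promotes differentiation in many epithelial cells, and loss of RARB or of retinoid-induced genes is a known feature of many breast cancers.

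The classic site of this control is in one of the promoters of RARB, shown here because it is the only repeat of its kind found beside the members. Promoter windows of 250 bases before a RefSeq start (build GRCh38.p14) were at hand for 8 of the 10 genes (not RARRES3 and GPRC5A), 16 windows in all. They were searched on both strands for a pair of half-sites in the same orientation, each of them AGGTCA or its variant AGTTCA, or else GGGTCA or its variant GGTTCA, spaced by 1, 2 or 5 bases. Of the 16 windows, 1 held such a pair, with a spacing of 5. It begins 53 bases before a RARB start and lies in a window on the plus strand at chr3:25428013-25428262, with the half-sites in capitals.
RARB: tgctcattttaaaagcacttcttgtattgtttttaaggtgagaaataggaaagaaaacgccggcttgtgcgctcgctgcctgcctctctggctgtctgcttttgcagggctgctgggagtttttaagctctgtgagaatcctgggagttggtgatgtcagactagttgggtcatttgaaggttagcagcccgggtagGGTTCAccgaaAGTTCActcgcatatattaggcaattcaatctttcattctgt
The repeat with this spacing was in 0.074% of 35114 windows of all genes. Repeats with the other spacings searched were in 0.097% (1 base) and 0.031% (2 bases) of them. Single half-sites were in 8 of the 16 windows, against 33.8% of all windows, and a match is a description of the letters, not of a bound site. No binding was measured in these tumours.

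The libraries held 29749909 to 50639082 gene counts in the group with MSC and 24616792 to 65275226 in the group without, and values below are CPM, the counts of a gene scaled to library size with the TMM factor, which corrects for a few genes taking up much of a library. Of the genes known to be high in the line, VIM averaged 8976 ± 2114 CPM with MSC and 7380 ± 589 CPM without MSC (SD, n = 5 and n = 4, as for all means below), and CD44, EGFR and AXL were called higher with MSC. Of the epithelial genes known to be low in it, CDH1 was at most 0.0202 CPM in any tumour, but KRT19 was at 259.8 to 412.2 CPM with MSC and 241.0 to 306.0 CPM without MSC, and EPCAM at 8.63 to 14.7 CPM with MSC and 8.85 to 10.9 CPM without MSC. Markers of other cells moved in part. Fibroblast and MSC markers (10 genes) summed to 18.7 to 118.3 CPM with MSC and 13.04 to 22.8 CPM without MSC, with the top value in tumour 15 and at most 34.0 CPM in the other 4 tumours with MSC. Of these markers 5 were tested, all with a positive log2 change, and 1 was called higher, against 4.18% over all genes tested. It was COL1A2, at 1.21 to 8.45 CPM with MSC and 0.528 to 0.699 CPM without MSC (log2 2.41 ± 0.51, edgeR adjusted p = 0.0104), so its groups did not overlap. Summed endothelial markers (8 genes, mostly ESAM) were 130.0 to 161.5 CPM with MSC and 92.6 to 111.1 CPM without MSC. The members of that list did not move together: ESAM was higher (log2 0.59 ± 0.11, edgeR adjusted p = 0.00483) and PECAM1 lower, at 4.43 ± 0.946 CPM with MSC and 8.50 ± 1.21 CPM without MSC (log2 -0.94 ± 0.19, edgeR adjusted p = 0.00745). Leukocyte markers (8 genes, mostly CD68) summed to 137.4 to 208.4 CPM with MSC and 94.3 to 137.3 CPM without MSC. Of the 2 tested, CD68 was called higher (log2 0.52 ± 0.15, edgeR adjusted p = 0.0371). CSF1R was not (log2 0.01 ± 0.28, edgeR adjusted p = 0.988). The more specific CDH5, PTPRC and DCN were each at most 0.207 CPM in every tumour without MSC, and with MSC reached 0.143 CPM (tumour 15), 3.58 CPM (tumour 1) and 18.9 CPM (tumour 15). Adipocyte markers (5 genes, LEP at 0 in every library) summed to 0.262 to 4.03 CPM with MSC and 0.290 to 0.752 CPM without MSC. The part of these cells in the results below was not tested, and values without tumour 15 are given where they bear on a gene.

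Of the 9 members that passed the filter, 1 was lower (RARRES3), 1 was higher (GPRC5A) and 7 did not pass an adjusted p of 0.05 in the quasi-likelihood test of edgeR, with Benjamini-Hochberg adjustment over all 13458 genes tested. Over all genes tested, 7.78% were called, 4.18% higher and 3.60% lower with MSC. The same 2 members were those whose groups did not overlap, as held for 5.13% (above with MSC) and 4.87% (below with MSC) of all genes tested. Both helped to decide which genes were looked at, so nothing is read from these counts. RARRES3 and GPRC5A went in opposite directions. None of the nuclear receptors, the retinoid enzymes DHRS3 and ALDH1A3 or the binding protein CRABP2 passed.

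**Figure D1:**
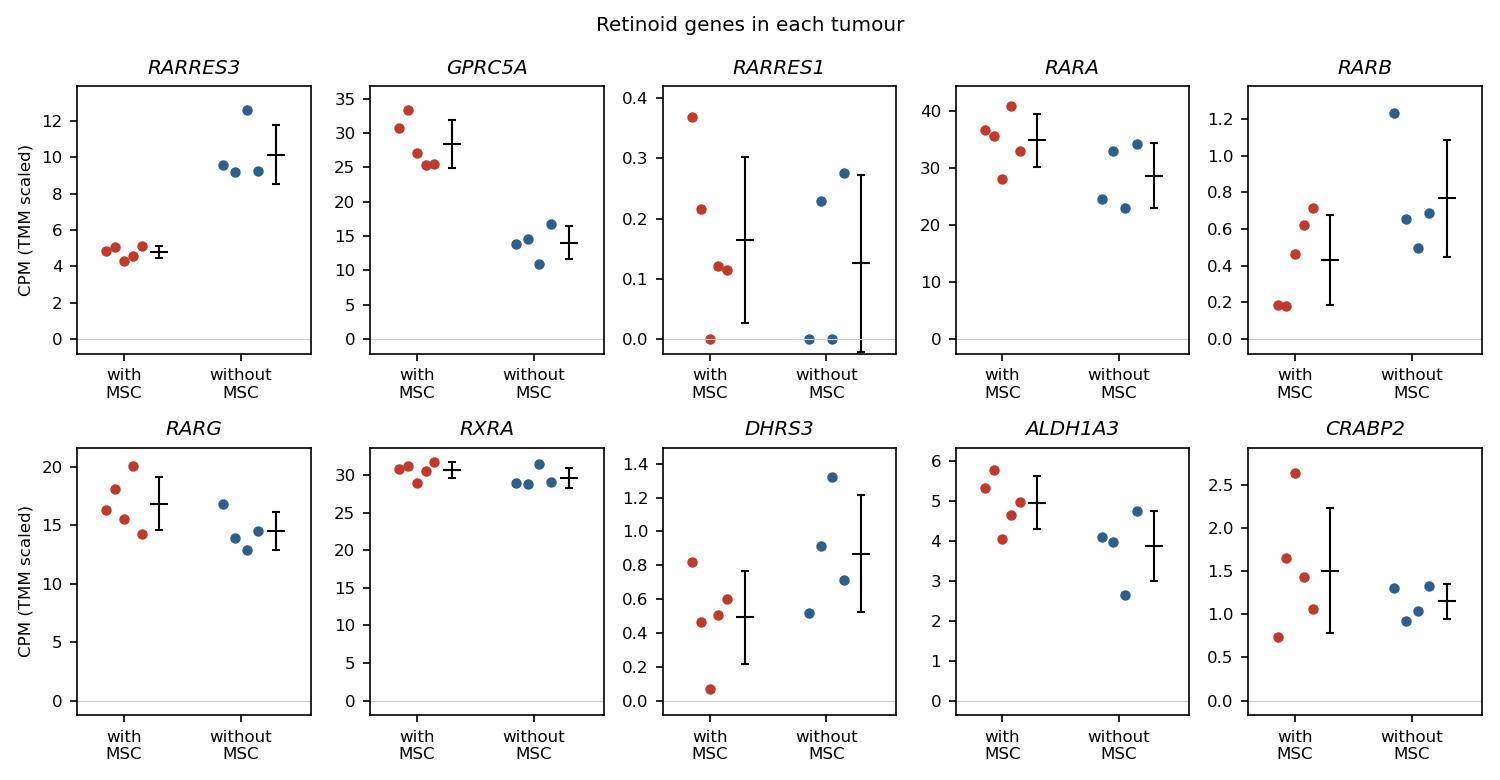
Level of each of the 10 retinoid genes in CPM (vertical axes, one scale per gene), with the 5 tumours with MSC in red and the 4 tumours without MSC in blue. Points are single tumours, and black bars are the mean ± SD. The groups are apart for RARRES3 (4.33 to 5.11 CPM with MSC, 9.19 to 12.6 CPM without MSC) and GPRC5A, and overlap for the other 8 genes.

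RARRES3 encodes a small membrane-bound enzyme that acts on phospholipids, restrains growth in several cell types and is raised by retinoids and by interferon. It had 4.82, 5.06, 4.33, 4.58 and 5.11 CPM in tumours 1, 6, 7, 10 and 15 with MSC, against 9.56, 9.19, 12.6 and 9.27 CPM in tumours 9, 11, 12 and 13 without MSC. The highest tumour with MSC was below the lowest without MSC, so the groups did not overlap. The mean was 4.78 ± 0.331 CPM with MSC and 10.2 ± 1.64 CPM without MSC, and the fitted log2 change was -1.09 ± 0.17 (SE), a level 0.471 times that without MSC. Tumour 12 was the highest by a clear margin. Without it the log2 change was -0.97, and without tumours 15 and 12 together -0.998, with the call kept in both. The tumours with MSC were close to one another, with a highest value 1.18 times the lowest, against 1.37 times without MSC.

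RARRES3 has 4 relatives of the HRASLS family in the tables, of which PLA2G16 and HRASLS were tested and not called. PLA2G16, a phospholipase of fat storage and the most abundant of them, averaged 153.0 ± 21.0 CPM with MSC and 151.7 ± 8.44 CPM without MSC (log2 0.01 ± 0.11, edgeR adjusted p = 0.963). HRASLS averaged 3.77 ± 0.755 CPM with MSC and 4.01 ± 0.110 CPM without MSC (log2 -0.09 ± 0.21, edgeR adjusted p = 0.831). HRASLS2, at most 0.395 CPM in any tumour, and HRASLS5, with no count in any library, were filtered and not tested. These genes have related sequences, and how shared reads were counted is not given in the sources used here.

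As RARRES3 is also known as an interferon-induced gene, 25 such genes are given beside it. They were chosen with their values in view, so their counts and median are a description and nothing is read from them. Of 24 tested, 4 were lower and 0 higher, or 16.7% lower, against 3.60% lower and 4.18% higher over all genes tested, with a median log2 change of -0.16, against 0.01 over all genes tested. IFI44 averaged 31.8 ± 2.90 CPM with MSC and 53.9 ± 12.6 CPM without MSC (log2 -0.76 ± 0.14, edgeR adjusted p = 0.00403). HERC5, which attaches the ubiquitin-like ISG15 to proteins, fell by 0.68 ± 0.14 on the log2 scale, DDX58, a sensor of viral RNA, by 0.48 ± 0.12, and OASL by 0.60 ± 0.15 (edgeR adjusted p = 0.00844, 0.0242 and 0.0228). The other 20 did not pass, among them IRF1, a factor of the interferon response, at 22.1 ± 3.09 CPM with MSC and 26.6 ± 1.72 CPM without MSC (log2 -0.27 ± 0.13, edgeR adjusted p = 0.185). The 24 genes did not all move together: 17 had a negative and 7 a positive log2 change. TAP1 (log2 0.41 ± 0.13, edgeR adjusted p = 0.0570) and OAS1 (0.44 ± 0.22, 0.208) were among those with a positive change. IFI44 and HERC5 kept their calls in each fit that left out 1 tumour. OASL lost its call without tumour 9 or 11 (edgeR adjusted p = 0.0878 and 0.0561), and DDX58 without tumour 1, 10, 9 or 12 (up to 0.103). Whether RARRES3 and these genes differ in their change was not tested.

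GPRC5A encodes an orphan G protein-coupled receptor of family C, induced by retinoic acid, whose loss gives lung tumours in mice. It had 30.8, 33.3, 27.1, 25.3 and 25.5 CPM in tumours 1, 6, 7, 10 and 15 with MSC, against 13.9, 14.5, 10.96 and 16.7 CPM in tumours 9, 11, 12 and 13 without MSC. Every tumour with MSC was above every tumour without. The mean was 28.4 ± 3.51 CPM with MSC and 14.02 ± 2.38 CPM without MSC, a fitted log2 change of 1.01 ± 0.14 or a level 2.02 times as high. Tumour 15, the one rich in fibroblast markers, was next to the lowest of its group, and the log2 change was 1.045 without it and 0.95 without tumours 15 and 12 together. Tumour 12 was the lowest, and the change was 0.91 without it.

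The other receptors of the GPRC5 family were measured at low levels. GPRC5B averaged 1.13 ± 0.565 CPM with MSC and 0.567 ± 0.263 CPM without MSC (log2 0.98 ± 0.54, edgeR adjusted p = 0.277), with overlapping groups. GPRC5D (0.257 ± 0.0750 CPM with MSC and 0.0810 ± 0.122 CPM without MSC) and GPRC5C (0.107 ± 0.0884 CPM with MSC and 0.109 ± 0.0966 CPM without MSC) were lower still. The floor of 3 counts was 0.0456 to 0.124 CPM, depending on the library.

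**Figure D2:**
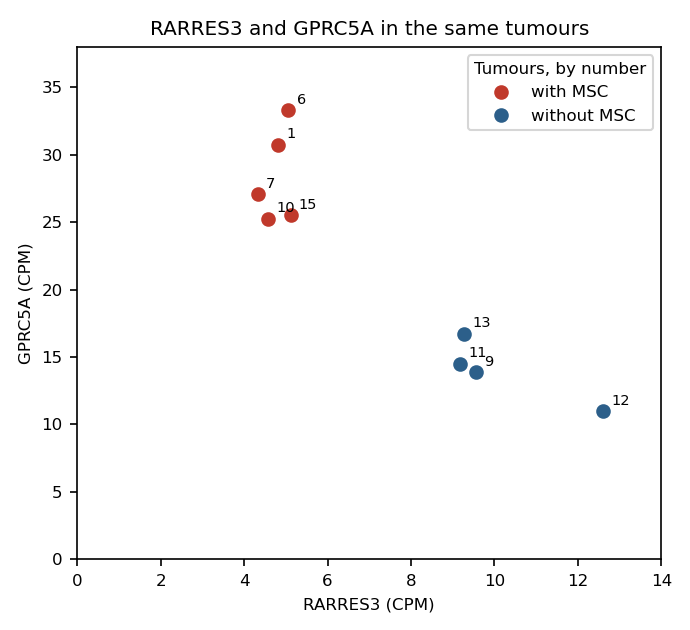
GPRC5A (vertical axis, CPM) against RARRES3 (horizontal axis, CPM) in the same tumours, numbered as in the labels, red with MSC and blue without MSC. The 5 tumours with MSC lie at 4.33 to 5.11 CPM of RARRES3 and above 25 CPM of GPRC5A, and tumour 12 lies farthest towards high RARRES3 and low GPRC5A.

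The 2 genes were set against each other within each tumour. GPRC5A over RARRES3 in CPM was 6.38, 6.58, 6.26, 5.52 and 4.99 in tumours 1, 6, 7, 10 and 15 with MSC, against 1.45, 1.58, 0.869 and 1.804 in tumours 9, 11, 12 and 13 without MSC. The ratio compares counts of transcripts of unlike length. Per kilobase of the longest annotated transcript, RARRES3 was the more abundant in both groups, at 5.09 CPM per kilobase with MSC and 10.8 without MSC, against 3.85 with MSC and 1.90 without MSC for GPRC5A. Over all 9 the tumours fall into separate clusters, so no pooled correlation is given.

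RARRES1, a membrane protein related to the carboxypeptidase inhibitor latexin and often silenced in tumours, was near the floor. It had 14, 6, 0, 6 and 4 counts in tumours 1, 6, 7, 10 and 15 with MSC, against 0, 7, 0 and 12 counts in tumours 9, 11, 12 and 13 without MSC. The 0 counts allow up to 0.0694 CPM in tumour 7, 0.0456 CPM in tumour 9 and 0.124 CPM in tumour 12. Counts of this size were not enough for a comparison. Part of its exons (331 bases in GENCODE release 29) also lie under exons of MFSD1 on the other strand. The library kit named in the labels does not mark strand, so reads from such shared stretches cannot be told apart.

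Among the receptors, RARA and RARG carried nearly all of the RAR signal. RARA had 36.7, 35.7, 28.2, 40.9 and 33.0 CPM in tumours 1, 6, 7, 10 and 15 with MSC, against 24.5, 33.0, 23.1 and 34.3 CPM in tumours 9, 11, 12 and 13 without MSC. The groups overlapped, and the log2 change of 0.28 ± 0.14 did not pass and was 0.04 with a correction for GC content and length. RARG averaged 16.8 ± 2.27 CPM with MSC and 14.5 ± 1.66 CPM without MSC (log2 0.21 ± 0.14, not past the threshold). RARB was low in every tumour, at 0.179 to 0.714 CPM with MSC and 0.496 to 1.23 CPM without MSC. Its lowest values, 7 and 5 counts, were in tumours 1 and 6 with MSC and its highest, 81 counts, in tumour 9 without MSC, and the log2 change of -0.83 ± 0.57 did not pass.

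Per kilobase, RARA made up 66.3 ± 2.17% of the summed RAR level with MSC and 64.4 ± 5.65% without MSC, and RARG 32.9 ± 2.21% with MSC and 33.9 ± 5.03% without MSC. RARB, the receptor with the repeat shown above, made up 0.827 ± 0.487% with MSC and 1.72 ± 0.740% without MSC, with ranges of 0.325 to 1.45% with MSC and 1.33 to 2.82% without MSC that overlap. The 3 shares came from the same libraries and sum to the whole. RARB shares 28 exon bases with TOP2B on the other strand, and RARA 556 with the antisense gene RARA-AS1.

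RXRA was the steadiest member. It had 30.8, 31.2, 29.03, 30.6 and 31.8 CPM in tumours 1, 6, 7, 10 and 15 with MSC, against 28.96, 28.8, 31.6 and 29.1 CPM in tumours 9, 11, 12 and 13 without MSC. The values interleave, the log2 change was 0.05 ± 0.11, and the highest tumour was 1.10 times the lowest in each group. The same correction gave a log2 change of -0.24 ± 0.12 for RXRA and -0.00 ± 0.14 for RARG, neither past the threshold, so no direction is given for them. Of its relatives, RXRB averaged 90.7 ± 3.06 CPM with MSC and 81.9 ± 3.96 CPM without MSC (log2 0.15 ± 0.09, edgeR adjusted p = 0.348) and made up 85.4 ± 0.192% of the RXR level per kilobase with MSC and 84.6 ± 1.17% without MSC. RXRG was at most 0.0414 CPM in any tumour.

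**Figure D3:**
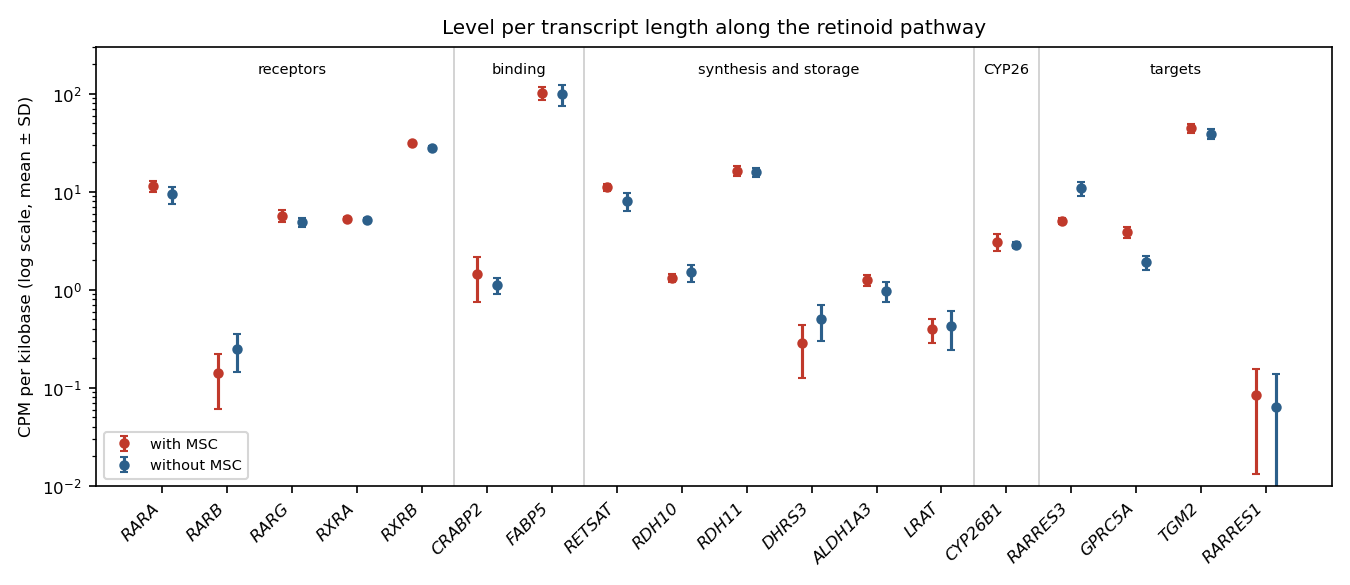
Level per kilobase of transcript on a log scale (mean ± SD over tumours, red with MSC and blue without MSC; lower bars that reach 0 are cut at the axis) for genes along the retinoid pathway, grouped by role. FABP5 stands highest and RARB and RARRES1 lowest; RARRES3 lies lower with MSC and GPRC5A higher with MSC.

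The members of supply and transport were measured at low to moderate levels, and their groups overlapped. ALDH1A3, a retinal-oxidising enzyme, had 5.32, 5.78, 4.05, 4.64 and 4.97 CPM in tumours 1, 6, 7, 10 and 15 with MSC. It had 4.09, 3.96, 2.65 and 4.73 CPM in tumours 9, 11, 12 and 13 without MSC. Its log2 change was 0.35 ± 0.21, and 0.21 without tumour 12, the lowest. Its sister enzymes ALDH1A1 and ALDH1A2 were each at most 0.0571 CPM in any tumour. ALDH1A3 shares 1585 exon bases with the antisense gene AC015712.2 and 63 with AC015712.5. Reads from these shared stretches cannot be told apart, so part of its counts may not be its own. The reverse enzyme DHRS3 had 31, 13, 3, 25 and 21 counts in tumours 1, 6, 7, 10 and 15 with MSC, against 34, 28, 32 and 31 counts in tumours 9, 11, 12 and 13 without MSC. These are 0.491 ± 0.272 CPM with MSC and 0.867 ± 0.345 CPM without MSC (log2 -0.80 ± 0.60, not past the threshold), and the 3 counts of tumour 7 are at the floor. CRABP2 averaged 1.502 ± 0.724 CPM with MSC and 1.15 ± 0.205 CPM without MSC (log2 0.38 ± 0.40, not past the threshold), with both its lowest value, 0.738 CPM in tumour 1, and its highest, 2.64 CPM in tumour 7, among the tumours with MSC. Without tumour 7 its log2 change was 0.08.

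The spread among tumours thus differed from member to member. On the log2 scale the SD within a group was 0.05 with MSC and 0.06 without MSC for RXRA, 0.10 with MSC and 0.22 without MSC for RARRES3, and 0.17 with MSC and 0.25 without MSC for GPRC5A. It was 1.11 with MSC and 0.54 without MSC for DHRS3, and 0.83 with MSC and 0.52 without MSC for RARB, the members of few counts. The SE of the fitted log2 change was 0.60 for DHRS3 and 0.57 for RARB, against 0.17 for RARRES3.

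**Figure D4:**
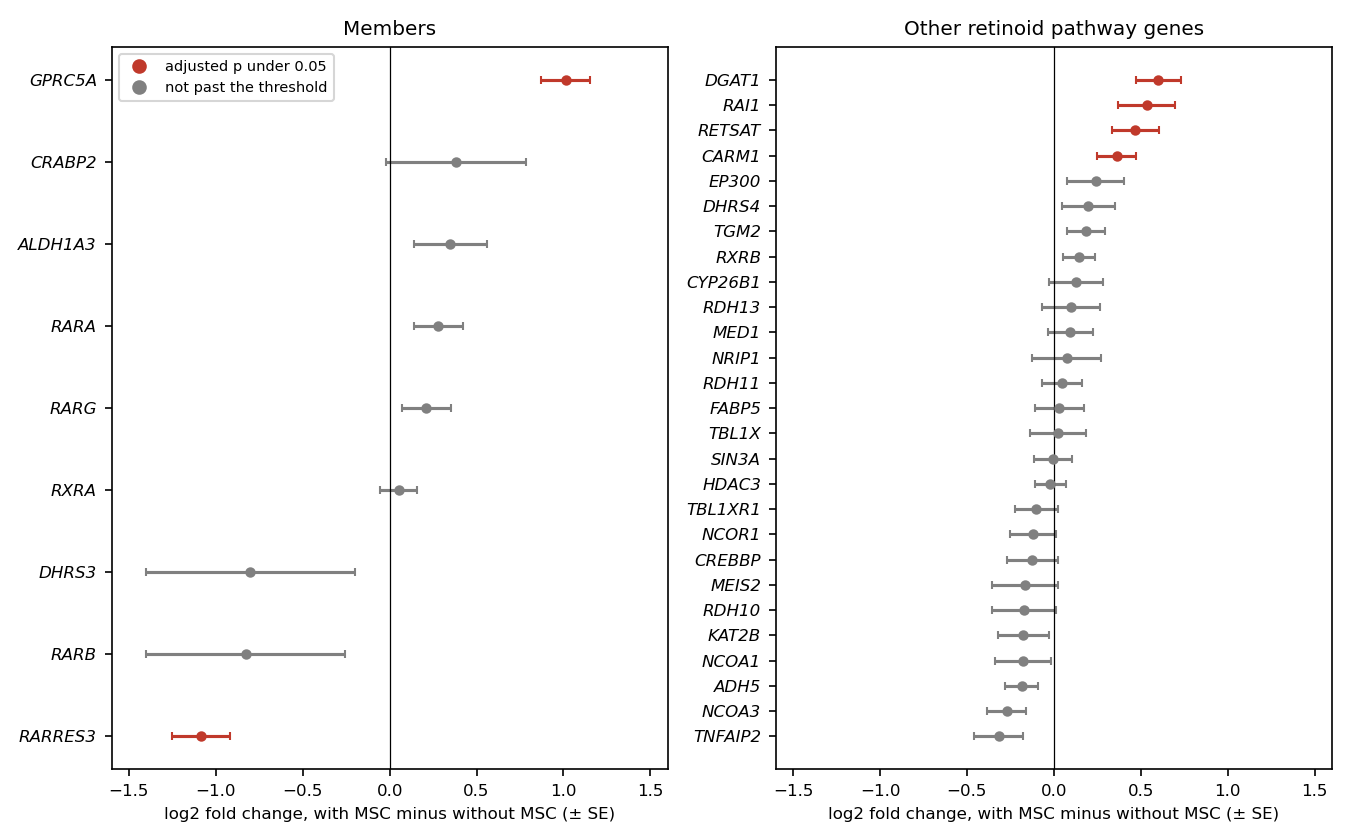
Log2 fold change (horizontal axis, with MSC minus without MSC, ± SE) of the 9 members that passed the filter (left) and of other retinoid pathway genes, nearly all of those with a mean of 5 CPM or more (right). Red points passed an adjusted p of 0.05 over all genes; they are GPRC5A and RARRES3 among the members, and DGAT1, RAI1, RETSAT and CARM1 on the right.

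Beyond the members, 71 further genes of retinoid uptake, metabolism, receptors, cofactors and targets were followed. Of these, 35 passed the filter and 11 had no count in any library, among them the retinol carriers TTR and RBP2, the binding protein CRABP1, the enzyme CYP26C1 and the homeobox target HOXB1. Of the 35, 4 were higher and 0 lower, or 11.4%, against the 7.78% over all genes, with a median log2 change of 0.05. The storage enzyme DGAT1, which makes retinyl esters and triglycerides, averaged 43.2 ± 3.92 CPM with MSC and 28.5 ± 5.35 CPM without MSC (log2 0.60 ± 0.13, edgeR adjusted p = 0.0101). RETSAT, which saturates retinol, averaged 34.5 ± 3.01 CPM with MSC and 24.9 ± 4.94 CPM without MSC (log2 0.47 ± 0.13, edgeR adjusted p = 0.0371). The histone methyltransferase and coactivator CARM1 (log2 0.36 ± 0.11, edgeR adjusted p = 0.0491) and RAI1, a chromatin protein (log2 0.53 ± 0.16, edgeR adjusted p = 0.0494), passed narrowly, the groups of RAI1 overlapping. DGAT1 lost its call without tumour 12 (edgeR adjusted p = 0.0502), RETSAT in 7 of 9 fits that left out 1 tumour, CARM1 in 8 and RAI1 in 7. With the correction for GC content and length, the log2 change was 0.11 for CARM1, 0.18 for RAI1 and 0.38 for RETSAT, none past the threshold. For DGAT1 it was 0.33, with the call kept narrowly (edgeR adjusted p = 0.0486).

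Among the other retinoic acid targets, CYP26A1, the retinoic acid hydroxylase used as a readout of the pathway, was at most 0.0717 CPM in any tumour. Its relative CYP26B1 averaged 14.7 ± 3.01 CPM with MSC and 13.48 ± 0.960 CPM without MSC (log2 0.13 ± 0.16, edgeR adjusted p = 0.662). TGM2, a transglutaminase and the most abundant target in the list, averaged 224.5 ± 22.1 CPM with MSC and 197.6 ± 24.3 CPM without MSC (log2 0.18 ± 0.11, edgeR adjusted p = 0.316). Of the 14 targets tested, GPRC5A and RAI1 were higher and RARRES3 was lower, or 21.4%, against 7.78% over all genes tested. The median log2 change of the targets was -0.03. As 2 of these 3 are the genes chosen for their change, nothing is read from this share. STRA6, the cell-surface retinol transporter, was below the filter and was not tested. It averaged 0.0998 ± 0.0975 CPM with MSC and 0.362 ± 0.273 CPM without MSC, with overlapping groups.

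Carriers, retinol enzymes and cofactors showed no call among those not named above. FABP5, which can carry retinoic acid to PPARD instead of the RARs, averaged 100.5 ± 15 CPM with MSC and 98.2 ± 23.9 CPM without MSC (log2 0.03 ± 0.14, edgeR adjusted p = 0.917). The retinol dehydrogenase RDH10 had a log2 change of -0.17 ± 0.19 (edgeR adjusted p = 0.613) and RDH11 of 0.05 ± 0.11 (0.836). RDH14 averaged 4.28 ± 1.14 CPM with MSC and 1.74 ± 1.23 CPM without MSC (log2 1.27 ± 0.46, edgeR adjusted p = 0.101), with overlapping groups. It was called higher only without tumour 13 (log2 1.70, edgeR adjusted p = 0.0216). The corepressor NCOR1 had -0.12 ± 0.13 (0.617), and the coactivator NCOA3 had -0.27 ± 0.11 (0.141), lower in all tumours with MSC than in any without. RXR also pairs with other nuclear receptors, and of 10 tested partners 2 were higher. PPARD, a fatty acid receptor, averaged 58.2 ± 9.48 CPM with MSC and 41.8 ± 6.23 CPM without MSC (log2 0.48 ± 0.13, edgeR adjusted p = 0.0327), and NR4A1, an early response receptor, 10.4 ± 6.95 CPM with MSC and 2.16 ± 1.31 CPM without MSC (log2 2.25 ± 0.57, edgeR adjusted p = 0.0443). Over all genes tested, 4.18% were higher. PPARD lost its call without tumour 1, 10, 15, 9, 11 or 12 in turn (edgeR adjusted p up to 0.117), with log2 changes of 0.42 to 0.57 over the 9 such fits, and also with the GC and length correction (log2 0.25, edgeR adjusted p = 0.228). NR4A1, highest in tumour 15 at 22.4 CPM, kept its call without that tumour (log2 1.76, edgeR adjusted p = 0.0159) and lost it without tumour 1, 6, 9, 11 or 12 (log2 1.959 to 2.397, edgeR adjusted p up to 0.126).

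Genes with a pattern over the 9 tumours like those of the called members were sought among 11865 others with a mean of at least 1 CPM, by the root mean square difference of log2 CPM after centring each gene on its mean. Nearest to RARRES3 were NAP1L3 (0.172), C14orf128 (0.178), AKR1C3 (0.181), ZSCAN16 (0.209) and APOBEC3G (0.210). NAP1L3, a histone chaperone relative, averaged 9.48 ± 1.11 CPM with MSC and 18.1 ± 3.28 CPM without MSC, and AKR1C3, an aldo-keto reductase that also reduces retinal, 10.1 ± 0.811 CPM with MSC and 21.9 ± 0.944 CPM without MSC. Among the 5 nearest to GPRC5A were RAB3IL1 (0.133), DNASE1L1 (0.139), CRELD1 (0.143) and SLC3A2 (0.151). DNASE1L1 averaged 20.2 ± 2.18 CPM with MSC and 9.61 ± 1.55 CPM without MSC. The measure includes the difference between the groups, so each of these genes was also apart between the groups in the direction of the member it was matched to.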

How the data were processed

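For each of 9 tumours the authors deposited raw counts by gene symbol. Per the submitters' processing notes, the tools included HTSeq, TopHat (1.4.0) and CASAVA (1.8.1), on hg19. No source used here gives the annotation, the strand setting or a removal of mouse reads, so mouse RNA of conserved genes can add to a count. Reads assigned to no gene (10.2 to 12.1% of a library) were left out. No libraries agreed within sampling noise (smallest chi-square per degree of freedom 23.2). The labels name no batch and no shared replicate numbers.

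Counts were fitted with edgeR 4.0.16 in R 4.3.3: filterByExpr, TMM, glmQLFit with robust=TRUE, Benjamini-Hochberg adjustment, threshold 0.05. SE is the change divided by the square root of F, and log2 CPM used a prior count of 2. Lengths came from GENCODE release 29 and promoters from RefSeq (GRCh38.p14), neither on the submitters' build, so no hg19 coordinates are given. In simulated counts for this comparison (13261 genes) calls were made for 23 of 66 genes altered 1.5-fold, for 50 of 66 at 2-fold, for 57 of 65 at 4-fold and for 7 of 13064 left as they were. Far fewer genes were altered there than the 1047 called in the data. The adjustment depends on that share, so these rates need not hold for the data.

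Members and lists were chosen with earlier results of these data known. Genes named by rule are the members, genes overlapping them, pathway and family genes that passed or averaged at least 5 CPM (a selection of these is printed), those at 0, markers, and the 5 nearest patterns. The interferon-induced genes, HRASLS, HRASLS2, GPRC5B, GPRC5C, GPRC5D, RXRG, ALDH1A1, ALDH1A2, CYP26A1, STRA6 and RDH14 are named in addition, chosen with their values in view. A few genes under this rule are not reported here. Floors (3 counts) cover counting error only, while the SE of a fitted change also takes in the spread among tumours. Alternatives were other scalings and filters, DESeq2 1.42.0, limma-voom (limma 3.58.1) with quality weights, and leaving tumours out. A GC and length correction (splines with 4 degrees of freedom, 88.3% of tested genes matched) and a threshold of 0.10 were added after seeing the data.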

Additional observations from a re-analysis of the deposited data

Results flagged for a closer look

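Tumour 12 without MSC stood apart from the other 3 of its group for 2 members. RARRES3 was 12.6 CPM there, with the next tumour at 9.56 CPM, and RXRA was 31.6 CPM, with the next at 29.1 CPM. In all, 48 groups of values (24 genes in each of the 2 conditions) were looked at, and about 1 in 20 would be marked by chance alone. Tumour 12 had the fewest gene counts (24616792).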

How the results depend on the processing

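RARRES3 and GPRC5A kept direction and call in all 18 alternatives, with log2 changes of -1.17 to -0.97 and 0.91 to 1.11. The other 7 tested members did not pass in any alternative that tested them. RARB, DHRS3, ALDH1A3 and CRABP2 were tested in 17, as a filter of 5 CPM in 4 libraries removed them. The threshold of 0.10 reuses the main fit, so no call could be lost with it. Among the members, direction reversed only with the GC and length correction, for RARG (-0.002) and RXRA (-0.237). That correction also reversed RXRB (-0.035), CYP26B1 (-0.091) and PLA2G16 (-0.004). Leaving out 1 tumour gave changes on both sides of 0 for PLA2G16 (-0.049 to 0.074), FABP5 (-0.074 to 0.154) and RDH11 (-0.016 to 0.106), and leaving out tumours 15 and 12 reversed FABP5 (-0.017). None of these passed the threshold in any fit. PPARD lost its call with library size only (adjusted p = 0.0612), and NR4A1 with library size only, no filter or limma-voom (0.0651, 0.0929 and 0.167). Counts over all genes were less steady. Leaving out 1 tumour gave 151 to 985 higher and 94 to 863 lower genes, against 563 and 484, and leaving out tumours 15 and 12 together gave 201 and 101. DESeq2 gave 859 and 778, a threshold of 0.10 gave 956 and 888, the GC correction 328 higher and limma-voom 293 lower genes. Of the further pathway genes, 1 was higher with library size only, limma-voom or the GC correction, 0 without tumours 15 and 12 together, and 0 to 5 when 1 tumour was left out. The GC correction, and leaving out tumour 15, made 1 of them lower (TNFAIP2, log2 -0.62 and -0.45), so 0 to 1 was lower when 1 tumour was left out. With Spearman's correlation in place of the root mean square difference, 0 of the 5 nearest genes were shared for RARRES3, also with ties (7 genes at 0.967 or above). For GPRC5A 10 genes tied at 0.983, 1 of its 5 nearest (RAB3IL1) among them, and the 5 first by name shared 0. The cause of these shifts was not tested. No paired analysis was possible because the groups share no replicate numbers. The counts of RARRES1, RARB and DHRS3 limit what can be said of them.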
